A study of Mus musculus with 4 samples.

Results

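The genes of the ectodysplasin system were followed in cultured mouse muscle cells: the ligand gene Eda, the receptor genes Eda2r, Edar and Tnfrsf19, and the adaptor gene Edaradd. These 5 genes were chosen by name, out of 53647 genes in the count tables. The rule uses names and no measured value, but the choice was made with earlier results of these data known. Of the 5 genes, 4 had at least 1 count in a library, and 3 (Eda, Eda2r and Tnfrsf19) passed the filter on low counts and were tested.

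RNA was sequenced from WT mouse primary myotubes, the multinucleated fibres that form when myoblasts fuse in culture. The myoblasts came from limb muscle of pups 2 to 3 days old, were grown with bFGF and were then moved to a medium with horse serum to differentiate. Recombinant EDA-A2 protein was added at 250 ng/mL for 24 h to one group, after 48 h of differentiation, and the other group served as Control. Each condition had 2 libraries, all harvested at 72 h, and no source states that the libraries of a condition came from separate cultures, so every p-value measures only the spread between these libraries.

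Ectodysplasin is a membrane-bound ligand of the TNF superfamily that is cut from the cell surface by furin-type proteases. Alternative splicing gives the EDA-A1 form, which binds EDAR, and the EDA-A2 form, which binds EDA2R (also called XEDAR). EDAR signals through its own adaptor EDARADD to NF-kB and is known for the development of hair follicles, teeth and glands, while EDA2R recruits TRAF proteins directly and is also known as a p53 target. TNFRSF19 (TROY) is a receptor related in sequence to both, first described in embryonic skin and the nervous system.

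The forms of the ligand differ at a splice junction, which is shown because the added protein is the EDA-A2 form while the deposited counts add up all Eda transcripts. In the GENCODE annotation (GRCm39), the exon before the last coding exon ends at position 99438755 of chromosome X in the EDA-A1 form and at 99438749 in the EDA-A2 form, and both join an exon that starts at 99440511. The 6 bases at 99438750-99438755, in capitals here, add 2 residues to EDA-A1, and 24 coding bases are shown on each side. Of 9 coding Eda transcripts, 3 carried the longer junction, 2 the shorter one and the others neither. The 2 with the shorter junction also begin this exon at 99438634, against 99438625 in the 3 with the longer one, a difference outside the bases shown.
EDA-A1: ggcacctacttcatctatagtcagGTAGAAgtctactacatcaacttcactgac
EDA-A2: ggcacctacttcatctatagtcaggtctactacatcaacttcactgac
Counts per gene cannot separate these forms, and a recombinant protein adds no Eda RNA to the cells.

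The libraries were of nearly equal depth, with 29444155 to 29746863 read pairs counted on genes. All 8 myotube markers had counts in every library, among them Myh3 and Acta1, which encode embryonic myosin heavy chain and skeletal actin. In the EDA-A2 libraries 3 myotube markers fell (Actn2, Myh3 and Acta1) and none rose, and the 8 markers summed to 20858 and 19756 counts per 1000000 normalized counts (CPM) in Control against 14760 and 15077 in EDA-A2. Of the 4 myoblast markers tested Cdh15 fell and none rose, with Calcr at 0. None of 5 fibroblast markers tested passed, with Lum and Thy1 at 0. Beside these counts, 2.13% of all genes tested fell and 2.45% rose, by the threshold given below (adjusted p under 0.05). None of the myotube or myoblast markers was called when either Control library was left out. In bulk RNA, fewer cells of a type and less RNA per cell cannot be told apart. Markers of epithelial and ectodermal cells, where Edar is best known, summed to 3.90 and 4.87 CPM in Control and 2.58 and 3.19 in EDA-A2, with Krt5 and Krt15 at 0 in all libraries. Of the other cell types, macrophage markers summed to 9.72 and 8.59 CPM in Control and 13.5 and 10.03 in EDA-A2, endothelial markers to 0.997 to 1.23 CPM, and glial markers to 145 to 173 CPM with Sox10 at 0. The part of other cells in the results was not tested.

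Across all genes, 15173 were tested with edgeR's quasi-likelihood test, and a gene is said to rise or fall where its Benjamini-Hochberg adjusted p was under 0.05. In this comparison 371 genes (2.45%) rose after EDA-A2 and 323 (2.13%) fell, 4.57% in either direction, and the median over all tested genes was a log2 fold change of -0.00. The number called depended on the settings: 86 genes were called when all genes with at least 1 count were tested. It also fell when any 1 library was left out, which leaves 1 library in that condition. A call lost in such a fit, here and below, cannot be told apart from the effect of having fewer libraries. Of the 3 ectodysplasin genes tested, Eda2r rose, and neither Eda nor Tnfrsf19 passed the threshold.

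In control myotubes the 5 genes covered a wide range of levels, and Eda2r stood above the others. Levels are compared between genes as CPM divided by the kilobases of exon, written CPM per kilobase and given as mean ± SD of 2 libraries. Eda2r was at 33.2 ± 2.11, Tnfrsf19 at 2.93 ± 0.684, Eda at 0.993 ± 0.192 and Edaradd at 0.0284 ± 0.00322, and Edar had no count. From Eda2r to Edaradd, neighbours in this order did not overlap in any control library. Edar and Edaradd cannot be ordered. With 3 counts as the limit for a count of 0, Edar could reach 0.0282 in Control replicate 1, where Edaradd was at 0.0261. Eda2r ranked 915 of 21626 protein-coding genes, higher than 95.8% of them, while Tnfrsf19 was higher than 64.9% and Eda higher than 52.6%. These shares count undetected genes as lower: of the 15607 protein-coding genes detected in Control, Eda2r was higher than 94.1%, Tnfrsf19 than 51.4% and Eda than 34.3%.

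**Figure D1:**
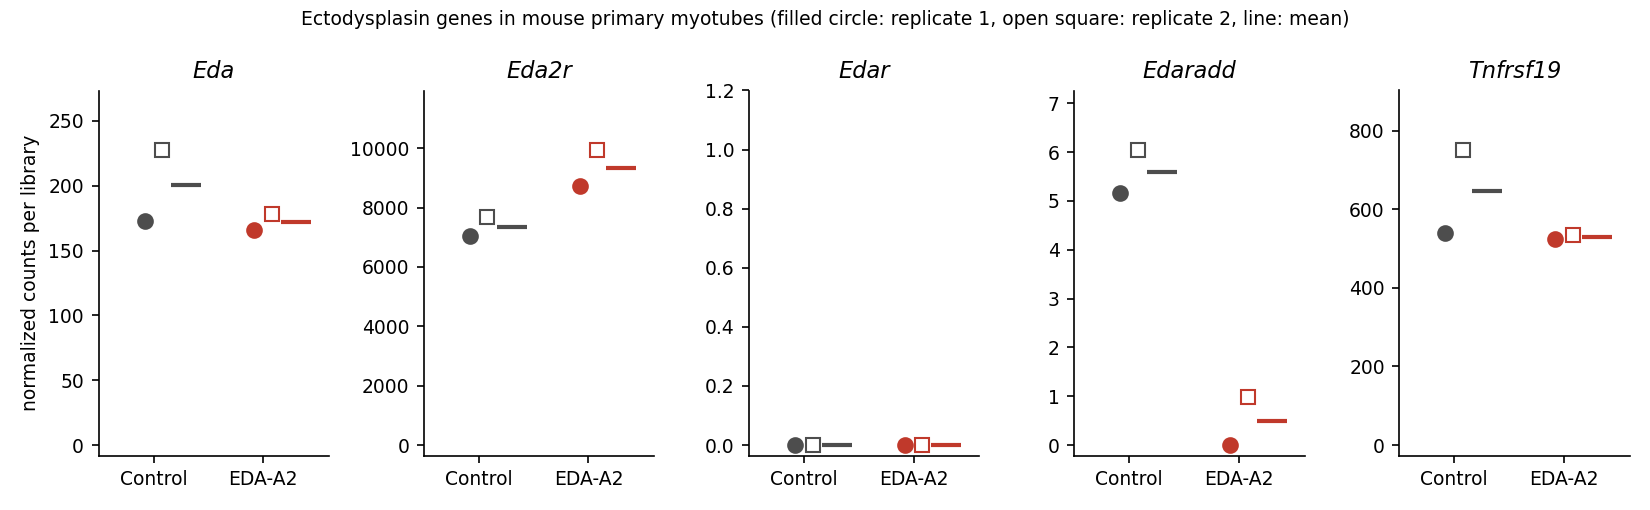
Normalized counts (counts scaled by the TMM factors, y axis, linear and on its own scale in each panel) of the 5 ectodysplasin genes in each of the 4 libraries, with filled circles for replicate 1, open squares for replicate 2 and a line for the mean. Both EDA-A2 libraries lie above both Control libraries for Eda2r, the Control replicates of Tnfrsf19 stand far apart, Eda overlaps between conditions, and Edar is at 0 throughout.

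Eda, the ligand gene (ENSMUSG00000059327; X:99019212-99444368, plus strand, GRCm39), was present at a low level in both conditions. Its counts were 168 and 226 in Control and 169 and 181 in EDA-A2, or 173 and 228 against 166 and 178 after normalization. Control replicate 2 was the highest of the libraries, and after normalization the other Control library lay between the EDA-A2 libraries, so the conditions overlapped. The log2 fold change was -0.22 (SE 0.16, 95% interval -0.57 to 0.12), with an adjusted p of 0.591. The estimate was -0.01 without Control replicate 2 and -0.41 without Control replicate 1, so its size depended on which Control library was kept.

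Among 18 TNF superfamily ligands, Eda had rank 2 by control level. Tnfsf9, the 4-1BB ligand, had rank 1 at 11.4 CPM per kilobase, and Tnfsf12 (TWEAK) had rank 3 at 0.874. The control values of Eda (0.857 and 1.13) and Tnfsf12 (0.819 and 0.929) overlapped, so their order is not distinguishable. Of the 5 ligands tested none rose or fell, and the median change was 0.18 (log2). The proteases that can cut the ligand were expressed: Furin, the best known of them, stood at 3043 and 2931 normalized counts in Control and 3016 and 2850 in EDA-A2. None of the 3 proteases tested (Furin, Pcsk7 and Pcsk6) passed the threshold, and their log2 fold changes were -0.03, -0.09 and -0.43. Beside the ligands and proteases, 2.45% of all genes tested rose and 2.13% fell.

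Eda2r, the receptor for EDA-A2 (ENSMUSG00000034457; X:96320270-96420847, minus strand, GRCm39), rose after its ligand was added. Its counts were 6817 and 7621 in Control and 8909 and 10125 in EDA-A2. After normalization these were 7024 and 7685 against 8732 and 9951, with means of 7354 ± 468 and 9342 ± 861 (SD, n = 2 each). Both EDA-A2 libraries were above both Control libraries, and the gap between conditions (7685 to 8732) was of similar size to the distance between the EDA-A2 replicates. The log2 fold change was 0.35 (SE 0.08), a 1.27-fold rise with a 95% interval of 1.13 to 1.42 and an adjusted p of 0.0178. The direction was the same under every alternative run, but the adjusted p was above 0.05 when all genes with at least 1 count were tested (0.261) and without Control replicate 1 (0.325), Control replicate 2 (0.199) or EDA-A2 replicate 2 (0.270). It was 0.00695 without EDA-A2 replicate 1 and 0.00387 by DESeq2.

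The start region of Eda2r is shown because it is the ectodysplasin gene that rose. The 250 bases before the RefSeq start (GRCm38.p6 chrX:97377210-97377459, minus strand, a different build from the counts) hold, in capitals and in this order, a GC box (GGGCGG) beginning 92 bases before the start, a TATA box (TATAAA) at 58 bases and a CCAAT box (CCAAT) at 47 bases.
Eda2r promoter: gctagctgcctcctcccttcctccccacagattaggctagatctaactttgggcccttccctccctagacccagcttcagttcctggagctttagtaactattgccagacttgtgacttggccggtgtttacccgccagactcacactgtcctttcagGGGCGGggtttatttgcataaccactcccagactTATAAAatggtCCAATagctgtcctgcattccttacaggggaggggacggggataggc
Searched on both strands in windows from 250 bases before to 50 after the start, these boxes were found in 35.7%, 13.6% and 37.4% of 32851 RefSeq promoters. Eda had 7 GC boxes and 1 of the Tnfrsf19 promoters had 3, some of the latter overlapping, and neither gene had a TATA or CCAAT box. Neither the NF-kB consensus (in 4.51% of all promoters) nor the p53 half-site (in 8.36%) was found in any promoter of the 5 genes, which says only that these letters are not in the windows searched.

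Eda2r was among the most abundant TNF receptor genes of these myotubes. Per kilobase of all exons it had rank 1 of 28 TNF receptor superfamily genes in Control, at 31.7 and 34.6, above Tnfrsf23 (25.3 and 23.9), a decoy receptor, and Tnfrsf12a (27.2 and 21.8), the receptor of TWEAK. With the longest transcript as the length, Tnfrsf12a had the highest level and Eda2r the next, at 43.3 and 38.3. Eda2r made up 19.6% and 21.5% of the summed superfamily level in Control, and 22.9% and 25.2% in EDA-A2.

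**Figure D2:**
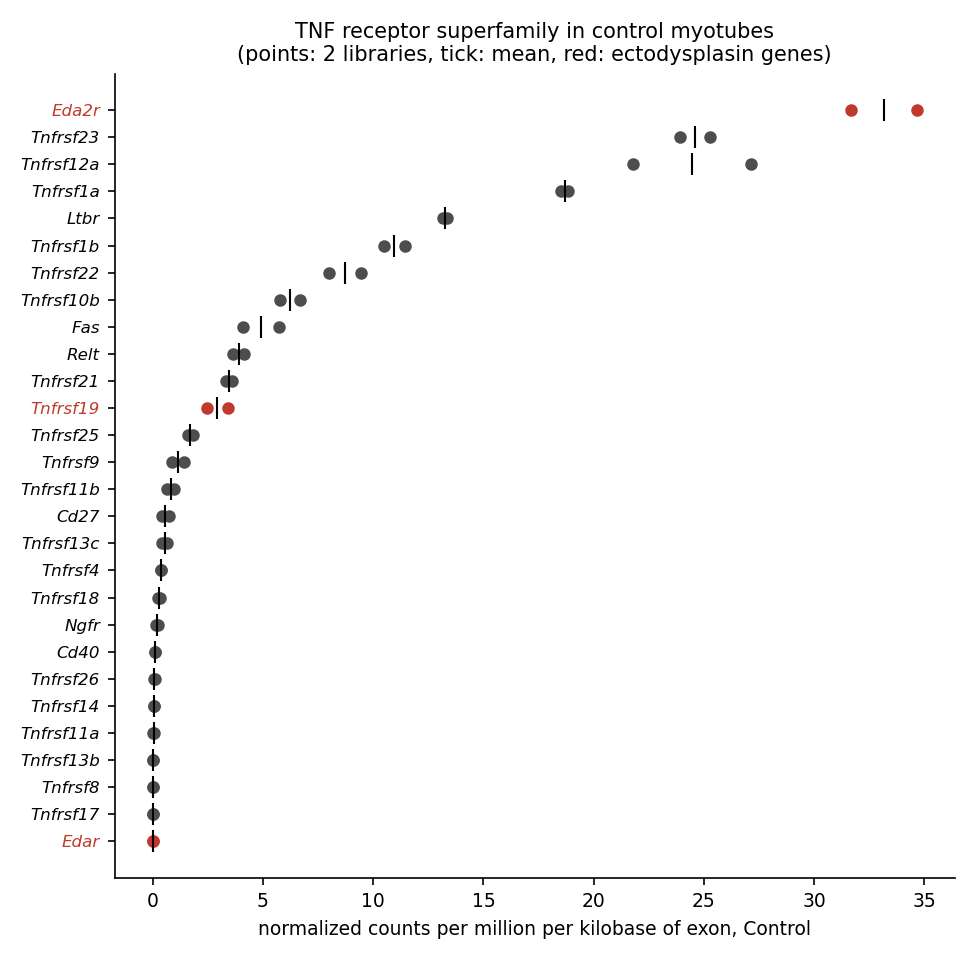
Level of each of the 28 TNF receptor superfamily genes in control myotubes, in CPM per kilobase of exon (x axis), with a point for each of the 2 libraries and a tick for their mean. The receptor genes followed here are in red: Eda2r has rank 1 at 33.2, Tnfrsf19 rank 12 at 2.93, and Edar is at 0, as is Tnfrsf17.

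Of 21 TNF receptor genes tested, 2 rose (Fas and Eda2r) and 1 fell, against 2.45% and 2.13% of all genes tested. The median log2 fold change of the 21 genes was 0.22. Fas, a death receptor and p53 target, had a log2 fold change of 0.90 (SE 0.13, adjusted p 0.000806), from 281 and 394 normalized counts in Control to 630 and 634. Tnfrsf12a fell by 0.39 on the log2 scale (adjusted p 0.0306), a call that was lost with total counts as the only scaling and without either EDA-A2 library. No TNF receptor gene was called when either Control library was left out or when all genes with at least 1 count were tested, and 1 was called without EDA-A2 replicate 2.

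Tnfrsf19 (ENSMUSG00000060548; 14:61201283-61284366, minus strand, GRCm39) was expressed at a middle level and its change did not pass the threshold. Its counts were 523 and 746 in Control and 536 and 543 in EDA-A2, or 539 and 752 against 525 and 534 after normalization. Both Control values lay above both EDA-A2 values, but Control replicate 1 was within a few percent of the EDA-A2 libraries, and Control replicate 2 alone stood apart. The log2 fold change was -0.29 (SE 0.13, 95% interval -0.56 to -0.01), with an adjusted p of 0.298. It was -0.03 without Control replicate 2 and -0.51 without Control replicate 1 (adjusted p 0.890 and 0.186). The antisense gene Gm41168 shares 875 exon bases with Tnfrsf19 and had 0 and 0 counts in Control and 3 and 2 in EDA-A2. The libraries were stranded, but the strand setting of the counting is not given in the sources used here.

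**Figure D3:**
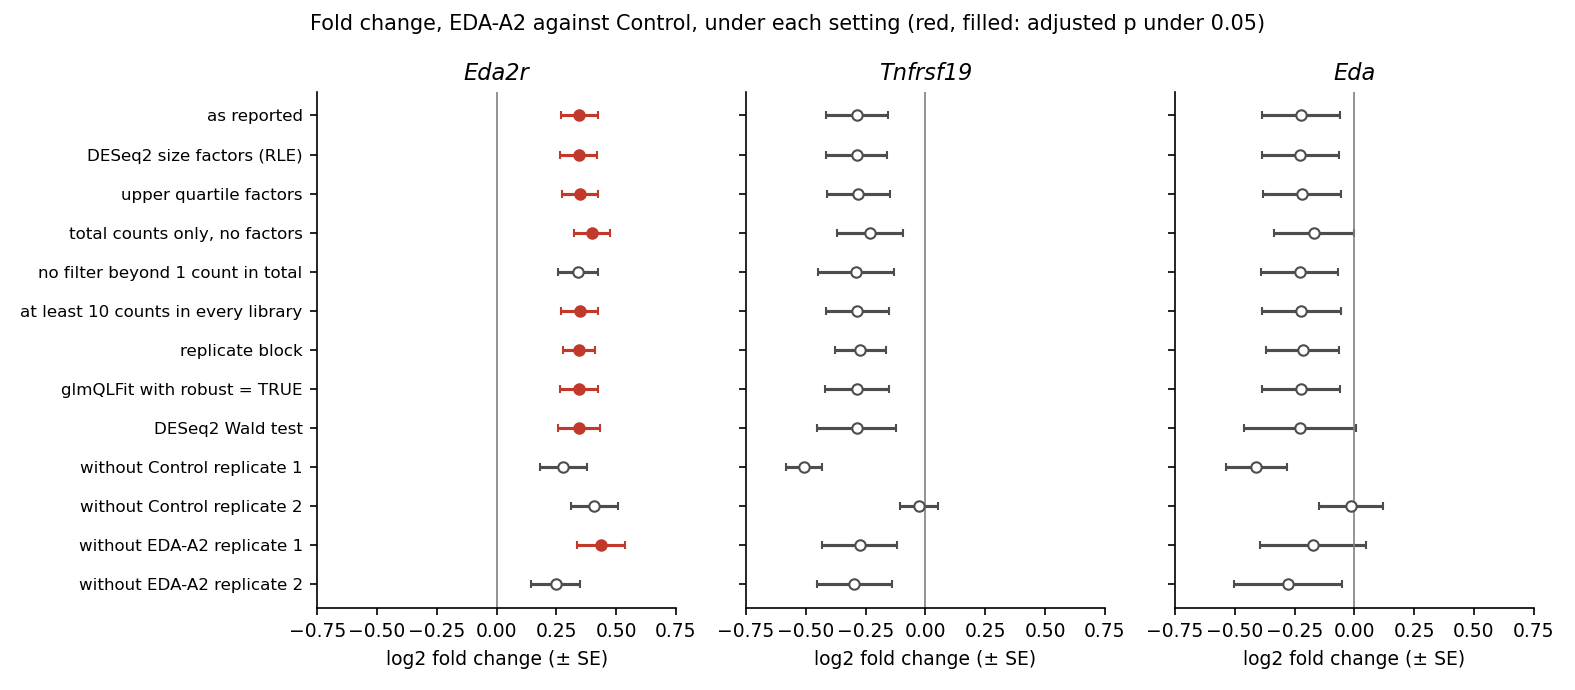
Log2 fold change with its standard error (x axis) of Eda2r, Tnfrsf19 and Eda under the reported settings and each alternative (y axis), with red filled points for an adjusted p under 0.05. Eda2r stays between 0.25 and 0.44, and Tnfrsf19 and Eda move towards 0 without Control replicate 2.

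The ratios of Eda2r to Eda and to Tnfrsf19 were higher in both EDA-A2 libraries than in both Control libraries. The level of Eda2r per kilobase was 36.9 and 30.7 times that of Eda in Control and 48.0 and 50.9 times in EDA-A2. Relative to Tnfrsf19 it was 13.0 and 10.2 times in Control and 16.5 and 18.5 times in EDA-A2. The ratio of Tnfrsf19 to Eda overlapped between conditions, at 2.85 and 3.02 in Control and 2.90 and 2.75 in EDA-A2. These ratios are descriptions and were not tested.

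Edar, the EDA-A1 receptor (ENSMUSG00000003227; 10:58436611-58511535, minus strand, GRCm39), had 0 counts in all 4 libraries. With the limit for a count of 0 taken as 3 counts, its level was at most 0.0276 to 0.0282 CPM per kilobase in Control and 0.0269 in both EDA-A2 libraries. This limit covers counting error only.

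Edaradd, the adaptor of EDAR (ENSMUSG00000095105; 13:12487513-12535319, minus strand, GRCm39), was close to the limit of detection. It had 5 and 6 counts in Control and 0 and 1 in EDA-A2, and was not tested because it did not pass the filter. Pooled over the libraries, 11 counts stood against 1, a ratio of Control to EDA-A2 of 11.4 after scaling, with an exact 95% interval of 1.66 to 492 that covers counting error only. With all genes of at least 1 count in the fit, edgeR gave an adjusted p of 0.443 for Edaradd, which did not pass the threshold.

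Below the receptors, some genes of the shared signalling route rose, most of those with higher estimates than Eda2r, a difference that was not tested. Of 16 adaptors and kinases tested, 6 rose and none fell (median log2 fold change 0.21), against 2.45% and 2.13% of all genes tested. Traf3, which holds the kinase NIK at a low level in resting cells, rose from 1211 and 1255 normalized counts to 2730 and 2894, a log2 fold change of 1.19. Map3k14, the gene of NIK itself, rose by 1.11, and Traf2 by 0.86. Cyld, a deubiquitinase that restrains NF-kB, rose by 0.34, close to the change of Eda2r. Birc3 (cIAP2) and Traf1 were nearly silent in Control, with normalized counts of 4.12 and 3.03 and of 5.15 and 7.06, and reached 67.6 and 53.1 and 38.2 and 51.1 in EDA-A2, so their fitted changes of 4.03 and 2.84 rest on few control counts. The kinases Chuk and Ikbkb and the adaptor Traf6, also on this list, did not pass the threshold, at 0.06, 0.14 and 0.14. Without Control replicate 1 or without Control replicate 2 none of the 16 was called.

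At the end of this route, NF-kB subunits and inhibitors were among the genes that rose. Of 10 tested, 5 rose and none fell, against 2.45% and 2.13% of all genes tested, and the median change was 0.64 (log2). The inhibitor Nfkbie rose from 137 and 163 normalized counts to 1283 and 1388, a change of 3.15 (SE 0.11). Nfkb2 and Relb, the subunits of the non-canonical route, rose by 1.89 and 0.99, and the inhibitors Nfkbia and Tnfaip3 by 1.43 and 1.01. Rela and Nfkb1, the canonical subunits, were at 0.30 and 0.10 and did not pass (edgeR adjusted p 0.0570 and 0.639), Rela by a small margin. Leaving out either Control library left 3 of the 10 called.

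**Figure D4:**
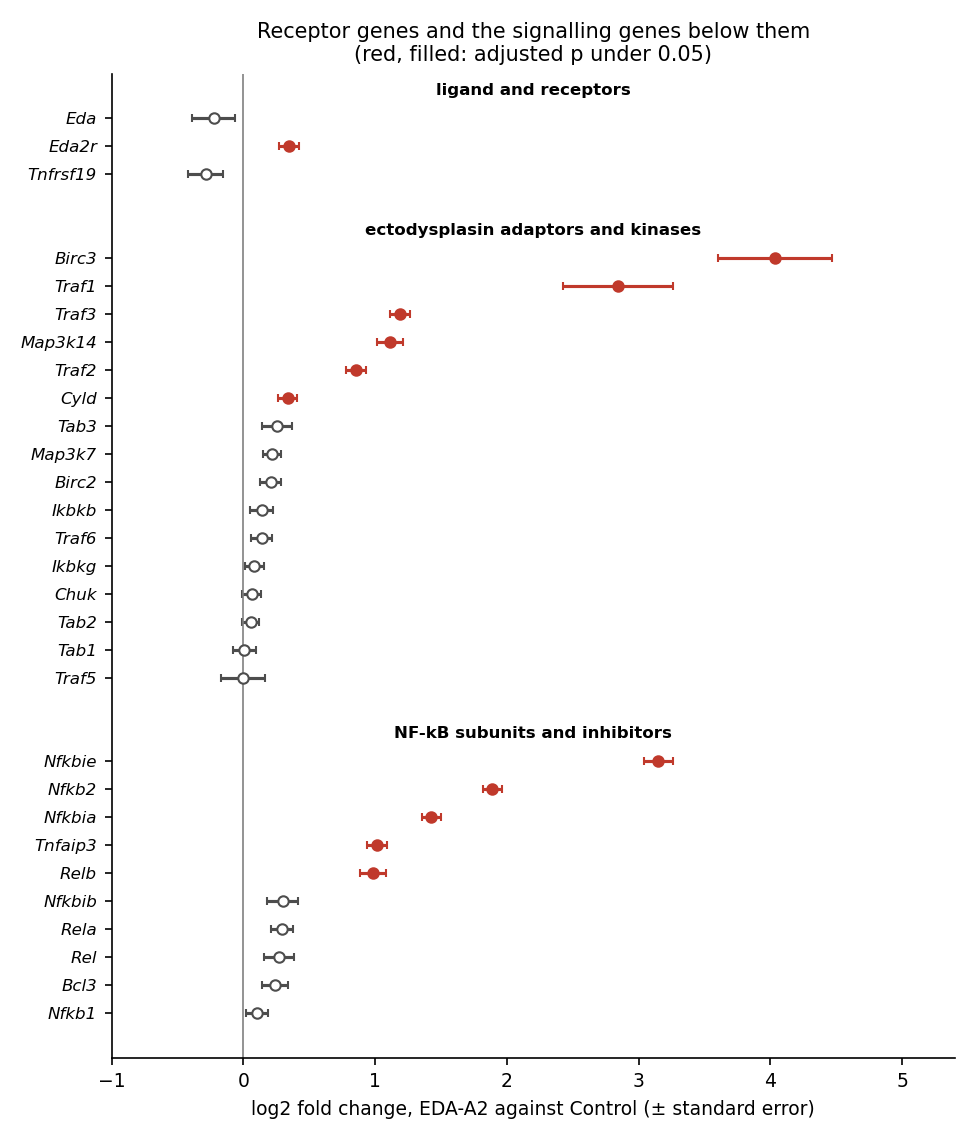
Log2 fold change of EDA-A2 against Control (x axis, with standard errors) for the tested ligand and receptor genes and for the lists of adaptors and kinases and of NF-kB subunits and inhibitors, with red filled points for an adjusted p under 0.05. Eda2r at 0.35 is the ectodysplasin gene called, and the changes of Nfkbie (3.15) and Nfkb2 (1.89) are larger.

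Genes known as EDAR targets in ectoderm were largely silent or did not pass the test. Of 15 listed, 6 had no count in any library (Shh, Dkk4, Fgf20, Madcam1, Sostdc1 and Foxi3) and 5 were tested. Of these Cxcl10, a chemokine gene, rose by 1.61 (adjusted p 0.000724), and Lrp4, a receptor best known in muscle for its part at the neuromuscular junction, fell by 0.28 (adjusted p 0.0437). The call for Lrp4 was lost with upper quartile factors or total counts as the scaling and without either EDA-A2 library. Among Wnt and BMP genes that act on Eda or Edar in skin, 2 of 12 tested rose and none fell. Beside both lists, 2.45% of all genes tested rose and 2.13% fell. Bmp2, a BMP ligand, rose by 2.26, from 29.9 and 42.4 normalized counts to 195 and 153, and Axin2, a Wnt feedback gene, by 0.90, while the median over the list was 0.02. Leaving out either Control library removed all calls in both lists. When all genes with at least 1 count were tested, none of the EDAR targets and 1 of the Wnt and BMP genes was called, and 1 of the latter was called without EDA-A2 replicate 2 or by DESeq2.

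Because Eda2r is known as a p53 target, p53 and its targets were counted as well. Of 16 tested, 3 rose (Fas, Trp53 and Eda2r itself) and none fell, against 2.45% and 2.13% of all genes tested. The median log2 fold change of the list was 0.20. Trp53, which encodes p53, rose by 0.52 (adjusted p 0.000867), from 1015 and 1052 normalized counts to 1504 and 1465. Trp53inp1 (0.45, adjusted p 0.0705) and Ccng1 (0.36, adjusted p 0.0734) fell short of the threshold, with Control replicates far apart. Cdkn1a and Phlda3, the p21 gene and another established target, had log2 fold changes of 0.00 and 0.00. No gene of the list was called when all genes with at least 1 count were tested, or when either Control library was left out.

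The muscle ubiquitin ligases Trim63 (MuRF1) and Fbxo32 (atrogin-1), which tag proteins for breakdown in atrophying muscle, both rose. Of all genes tested, 2.45% rose and 2.13% fell. Trim63 went from 2014 and 2070 normalized counts to 3449 and 3794, a log2 fold change of 0.83, and Fbxo32 from 1660 and 1885 to 2812 and 2747, a change of 0.65. Neither was called when either Control library was left out.

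Eda2r and Eda lie 2.598 Mb apart on chromosome X. Of 50 tested genes within 5 Mb of the Eda2r start, 2 rose (Eda2r itself and Il2rg) and none fell, and the median log2 fold change was -0.03. Over all genes tested 2.45% rose and 2.13% fell, and on the X chromosome 6 of 485 tested genes rose and 12 fell. Il2rg, the common gamma chain of interleukin receptors, had a log2 fold change of 1.0001 (adjusted p 0.0018, against 0.0707 when all genes with at least 1 count were tested and 0.186 and 0.150 without Control replicate 1 or 2). Next to Eda2r, Pgr15l had no count in any library. Next to Eda, Nalf2 had no count, and Awat2, 1.46 kb away, had 42 and 46 counts in Control and 78 and 76 in EDA-A2 (log2 fold change 0.75, adjusted p 0.0992). Beside Tnfrsf19, Mipep had a log2 fold change of 0.19 and did not pass.

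**Figure D5:**
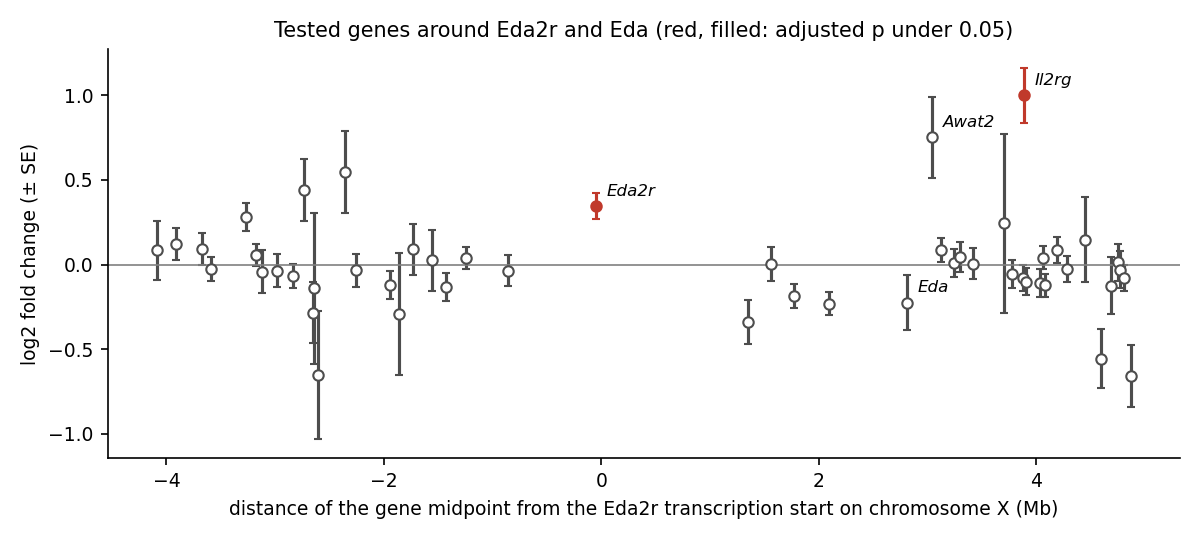
Log2 fold change of EDA-A2 against Control (y axis, with standard errors) of 50 tested genes within 5 Mb of the Eda2r start, by distance in Mb along chromosome X (x axis), with red filled points for an adjusted p under 0.05. Eda2r (0.35) and Il2rg are called, and Eda (-0.22) and Awat2 (0.75) are not.

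The genes with the pattern most like that of each tested ectodysplasin gene were found from the root mean square distance between log2 CPM values centred over the 4 libraries. Nearest to Eda2r were Pappa, Susd6 and Gpr157 (distances 0.0218, 0.0225 and 0.0233), of which Susd6 rose (0.31, adjusted p 0.0226). That call was lost without Control replicate 1, Control replicate 2 or EDA-A2 replicate 2 (adjusted p 0.306, 0.192 and 0.310) and with no filter (0.245). Nearest to Eda were Myf5, 2810455O05Rik and Rac3, and nearest to Tnfrsf19 were Fhod3, Col20a1 and Zbtb48. With 4 libraries such likeness is common: 508 genes (3.35%) lay within 0.1 of Eda2r, 629 (4.15%) within 0.1 of Eda and 258 (1.70%) within 0.1 of Tnfrsf19.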

How the data were processed

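RNA sequencing of 4 libraries of mouse primary myotubes (2 Control, 2 EDA-A2) was analysed. The authors deposited raw counts: whole numbers of read pairs for each Ensembl gene, not normalized. Their processing notes name FastQC 0.11.9, MultiQC 1.12, Trim Galore 0.6.5, STAR 2.7.3a, HTSeq 0.11.1 and GRCm39. The annotation release and strand option are not given in the sources used here. The 5 summary lines of HTSeq were left out: reads outside genes were 6.68% to 7.40% of pairs, ambiguous ones 0.946% to 0.986% and multiply aligned ones 4.56% to 4.76%. GENCODE vM39 named 52610 of 53647 genes.

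Counts were analysed with edgeR 4.0.16 in R 4.3.3: TMM factors, filterByExpr (minimum count 10, minimum total 15), the quasi-likelihood test with condition as the only term, Benjamini-Hochberg adjustment over 15173 genes and a threshold of 0.05. Levels per kilobase used the union of exons. DESeq2 1.42.0 was an alternative, with other scalings, filters, a replicate block and each library left out. The steps were tested on simulated data. Promoters are from RefSeq, and all 5 genes matched. The members and gene lists were chosen with earlier results of these data known. Named from each list were up to 5 tested genes with the smallest p-value, together with the neighbours and the 3 genes nearest in pattern to each tested member. Some neighbours are not reported here. Chuk, Ikbkb, Traf6, Cyld, Rela, Nfkb1, Cdkn1a, Phlda3 and Il2rg were named after their values were seen.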

Additional observations from a re-analysis of the deposited data

How the results depend on the processing

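With 2 libraries per condition, small changes such as that of Eda2r depend on the settings. For Eda2r, 8 of 12 alternatives kept the call; with no filter beyond 1 count in total the log2 fold change was 0.34 (edgeR adjusted p 0.261), and leaving out 1 library gave 0.25 to 0.44. Without 1 library, the lone sample is assumed to vary like the other group. None of the alternatives run reversed the direction of Eda, Eda2r, Tnfrsf19 or Edaradd. Neither Eda nor Tnfrsf19 was called under any of 12 alternatives; leaving out 1 library gave -0.41 to -0.01 for Eda and -0.51 to -0.03 for Tnfrsf19. For Edaradd it gave -3.62 to -2.51, where leaving out EDA-A2 replicate 2 gives no value, and Edar gives no change under any setting. Of all genes, 694 were called, against 86 (64 higher, 22 lower) with no filter, 548 by DESeq2 and 7 to 416 without 1 library. Total counts as the only scaling shifted the median gene by 0.05 and gave 485 higher and 194 lower. With the longest transcript as the length, control levels per kilobase were 1.33 for Eda, 38.3 for Eda2r and 4.0015 for Tnfrsf19; leaving out 1 Control library gave 0.857 to 1.13, 31.7 to 34.6 and 2.44 to 3.41, and 0.0261 to 0.0307 for Edaradd. The libraries share replicate numbers, but the labels do not say that a number marks a shared culture, and deviations of same-numbered libraries correlated little (r = 0.06 over 15173 genes). A replicate block gave 1066 called genes (537 higher, 529 lower), 0.34 for Eda2r (adjusted p 0.00188), -0.22 for Eda and -0.27 for Tnfrsf19; chosen after seeing the data, the block with no filter gave -3.24 for Edaradd. Under the block 7 genes of the p53 list were called in place of 3.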
